A study of Mus musculus with 8 samples.

Results

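The complement components and regulators examined here are 9 genes, chosen by name among the 24346 genes listed for every library: C3, C4b, C2, Cfb, C1ra, C1s (listed as C1s1), Cfi, Cd55 and Cd59a. All 9 were found, and all 9 were above 0 in at least 1 library and were tested. Complement is a set of plasma proteins, many of them serine proteases, that cleave and activate each other in a cascade on foreign or damaged surfaces. The classical, lectin and alternative pathways all end in the cleavage of C3, and regulators in plasma and on the cell membrane keep host cells from being attacked. Most plasma complement is made in the liver, but stromal, epithelial and fat cells also make components, and factor D was first described in adipocytes as adipsin.

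RNA was sequenced from primary adipose-derived stem cells (ADSCs) of wild-type BALB/c mice, which the study took as young adult males. The cells came from collagenase-digested gonadal fat, and no sorting before culture is described in the sources used here. There were 4 libraries of 2D cultures, from mice 2, 3, 4 and 5, and 4 libraries of 3D cultures, from mice 1, 4, 5 and 7, in which cells grew as organoids in Matrigel. The study tried media with and without Wnt3a- and R-Spondin1-conditioned medium, and which of them the sequenced 3D cultures had, and their passage, is not given in the sources used here. Matrix, medium and shape of the culture may have differed together, and their contributions cannot be told apart.

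All levels below are quantile-normalized FPKM (fragments mapped per unit of gene length and of library depth), which are per length and can be compared between genes. Differences are 3D minus 2D on the log2(FPKM + 1) scale, with the standard error (SE) and the 95% interval of limma's moderated test, and a gene was called at an adjusted p (Benjamini-Hochberg over 18862 genes) below 0.05. The estimated depth was 17.6 to 18.4 M fragments in 2D and 15.6 to 16.8 M in 3D libraries.

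The 2D libraries were not alike. The summed level of 4 mesothelial markers (Msln, Upk3b, Wt1 and Lrrn4) was 511 in the library of mouse 3 and 1358 in that of mouse 4, but 0.543 and 0.352 in those of mice 2 and 5, and 1.57 to 33.7 in 3D. None of these 4 markers passed the test between cultures. In the 3D libraries, 7 of 8 stromal markers were lower (summed level 1540 to 3384 in 2D and 0.0465 to 0.175 in 3D, with Pdgfrb, Dcn and Lum at 0 in every 3D library) and 7 of 8 epithelial markers were higher (31.6 to 694 in 2D and 2390 to 2908 in 3D). Of the 5 surface markers of adipose stem cells, Ly6a was higher in 3D, and Thy1 and Eng were lower. In bulk RNA, fewer cells of a type and less RNA per cell cannot be told apart.

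The promoters of 3 of the 4 called members are shown first, since the results below turn on these genes; the fourth, C2, had no entry. RefSeq promoter windows (GRCm38.p6, 250 bases before to 50 after the annotated start) were at hand for 5 of the 9 members, C3, C1ra, C1s1, Cd55 and Cd59a. They are printed 5′ to 3′ on the gene's strand for C3 (chr17:57228087-57228386, minus strand), C1ra (chr6:124512371-124512670, plus strand) and the first listed start of C1s1 (chr6:124542310-124542609, minus strand). In GENCODE the C1ra gene starts at chr6:124512405, so by that annotation most of its window, with both marked matches, lies inside the gene. Capitals mark matches, on either strand, to 5 motifs named for the factors they resemble: the TATA box (TATAAA), C/EBP (TTGCNNAA), the interferon-gamma-activated site GAS (TTCNNNGAA), the interferon-stimulated element ISRE (GAAA and GAAA with 2 free bases between them) and NF-kB (GGGA and CC with 4 free bases between them).
C3: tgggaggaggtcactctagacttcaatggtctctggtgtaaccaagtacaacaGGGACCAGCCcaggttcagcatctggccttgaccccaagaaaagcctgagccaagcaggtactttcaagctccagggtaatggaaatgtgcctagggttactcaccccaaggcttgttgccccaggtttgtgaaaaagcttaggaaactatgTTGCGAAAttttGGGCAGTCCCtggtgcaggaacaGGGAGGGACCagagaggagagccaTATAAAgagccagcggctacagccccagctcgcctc
C1ra: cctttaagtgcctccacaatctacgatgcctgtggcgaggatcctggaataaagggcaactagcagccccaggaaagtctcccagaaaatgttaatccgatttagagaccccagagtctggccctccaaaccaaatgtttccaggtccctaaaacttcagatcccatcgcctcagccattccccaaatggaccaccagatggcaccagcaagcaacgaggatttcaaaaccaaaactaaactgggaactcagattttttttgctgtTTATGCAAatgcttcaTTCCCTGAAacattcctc
C1s1: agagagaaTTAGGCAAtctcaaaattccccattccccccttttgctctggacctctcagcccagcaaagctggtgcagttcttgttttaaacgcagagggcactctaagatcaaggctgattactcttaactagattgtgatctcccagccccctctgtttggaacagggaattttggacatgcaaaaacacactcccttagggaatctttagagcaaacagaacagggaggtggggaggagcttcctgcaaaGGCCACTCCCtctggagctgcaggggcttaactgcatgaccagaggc

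The C3 window held a TATAAA match that began 15 bases after the annotated start, a C/EBP match at -45 and 3 NF-kB matches at -197, -33 and -10. The C1ra window held a C/EBP match at 17 and a GAS match at 33, both after the RefSeq start. The C1s1 window held a C/EBP match at -242 and an NF-kB match at 4, after the start. No 2 of these matches overlapped. Of the windows not printed, that of Cd55 held 1 NF-kB match and that of Cd59a 1 ISRE match. Among 32851 promoter windows of the same length, 13.6% held TATAAA, 10.8% C/EBP, 8.30% GAS, 3.44% ISRE and 20.7% NF-kB. A match describes the letters only, and binding of a factor was not measured.

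C3, the central component on which all pathways converge, rose in 3D cultures. The classical pathway proteases C1ra, C1s1 and C2 fell, with C2 close to the threshold. Of the 9 members, 1 was higher in 3D and 3 were lower at an adjusted p below 0.05 (limma), and 5 were not called. Among all genes tested, 41.5% were called, 21.2% higher and 20.3% lower. The libraries of the cultures did not overlap in 6 of the 9 members, against 42.5% of all genes. The median difference was -0.85 over the members and 0.00 over all genes.

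**Figure D1:**
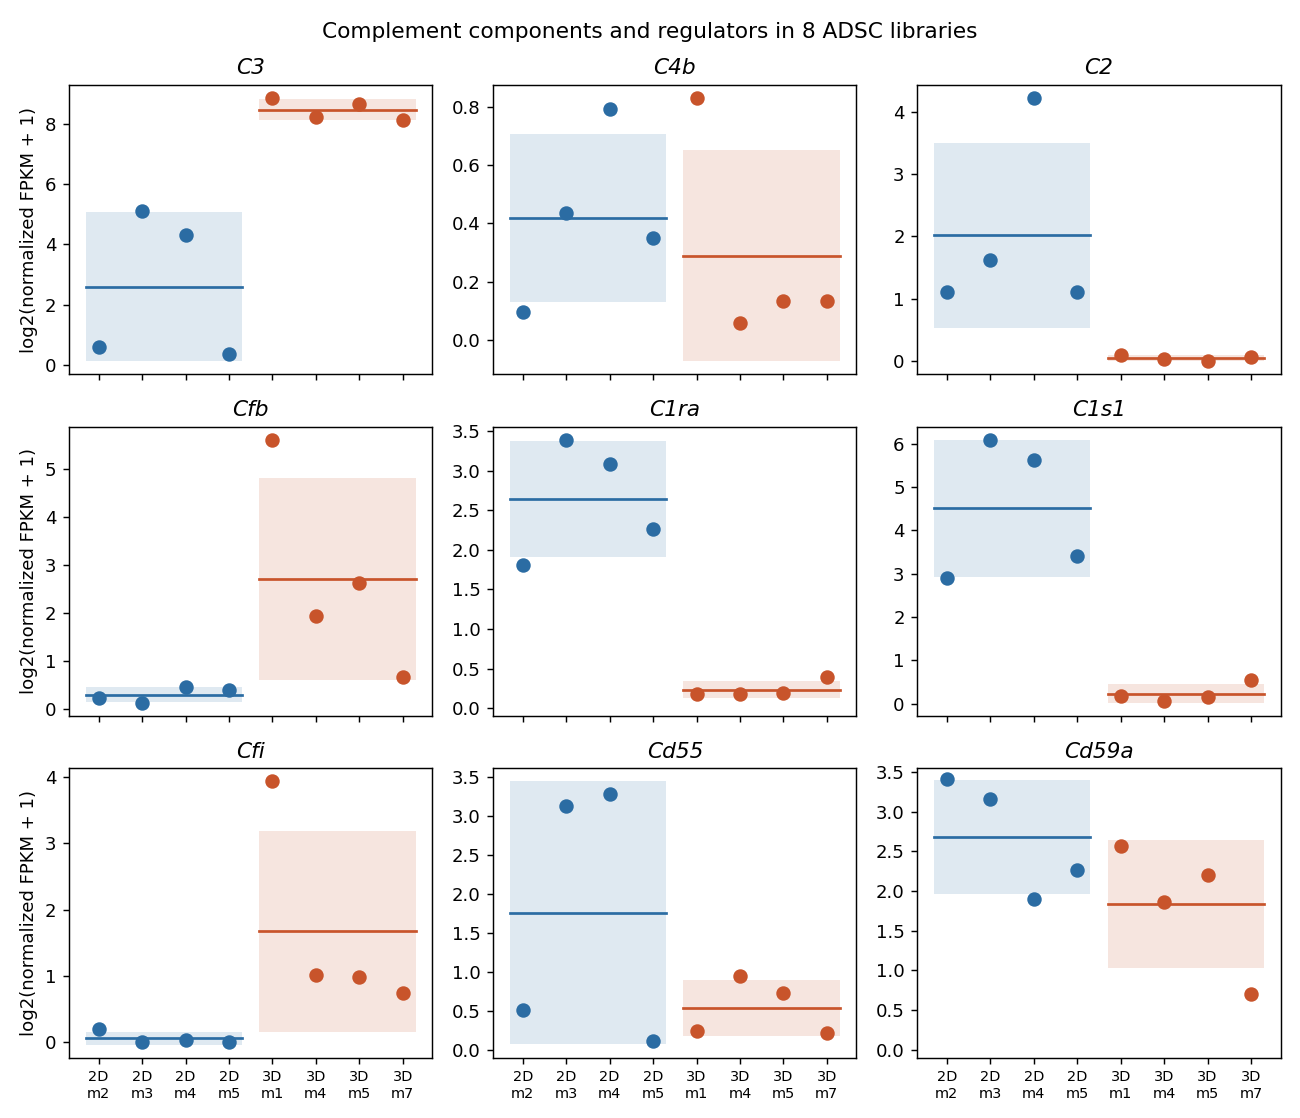
Level of each of the 9 members in each library, as log2(normalized FPKM + 1), with 2D libraries in blue and 3D libraries in orange (m2 is mouse 2, and so on). Lines are the means of 4 libraries and bands are ± 1 SD. C3 sits above 8 in every 3D library, and C2, C1ra and C1s1 sit near 0 there.

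C3 (ENSMUSG00000024164.15, chr17:57203970-57228136, minus strand, mm10) was at 0.508, 33.9, 18.9 and 0.272 FPKM in 2D (mice 2, 3, 4 and 5). It was at 466, 304, 407 and 280.1 FPKM in 3D (mice 1, 4, 5 and 7). Every 3D library was above every 2D library, and within 2D the libraries of mice 3 and 4 were far above those of mice 2 and 5. The mean was 13.4 ± 16.2 FPKM in 2D and 364 ± 87.4 in 3D (SD, n = 4), a ratio of 27.2 (19.9 to 55.2 with each library left out, the highest without the 2D library of mouse 3). The difference was 5.89 (SE 1.11, 95% interval 3.32 to 8.46, limma adjusted p = 0.00402). C3 ranked among the highest 0.891% to 1.36% of the tested genes in each 3D library, and between 12.3% and 69.4% from the top in the 2D libraries.

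The rise of C3 was seen in both mice that gave a library of each culture, by 3.94 on the log2 scale in mouse 4 and 8.33 in mouse 5. With a block for the mouse, which leaves 1 residual degree of freedom, the difference was 6.13 and the adjusted p was 0.184 (limma). That fit called 0% of all genes, and 27.7% had an unadjusted p below 0.05. From mice 4 and 5 alone the adjusted p of C3 was 0.0701. The difference was 7.96 without the 2D libraries of mice 3 and 4 and 3.66 without those of mice 2 and 5. These pairs were chosen after their levels were seen, and leaving out either removes most of the spread within 2D, so no p is given for these fits here.

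The next members act at the start of the classical pathway. C1r and C1s are the paired serine proteases of the C1 complex, in which C1r activates C1s and C1s then cleaves C4 and C2. C1s1 (chr6:124530345-124542359, minus strand) was at 6.49, 67.1, 48.1 and 9.63 FPKM in 2D (mice 2, 3, 4 and 5). In the 3D libraries of mice 1, 4, 5 and 7 it was at 0.125, 0.0412, 0.116 and 0.457 FPKM. The lowest 2D library was thus well above the highest 3D library. The 3D levels stood for few estimated fragments, from 2.03 in mouse 4 to 19.9 in mouse 7. Mean C1s1 was 32.8 ± 29.6 FPKM in 2D and 0.185 ± 0.185 in 3D (SD, n = 4), a ratio of 178. The size of this ratio was not well fixed, with 353 without the 3D library of mouse 7 and 113 without the 2D library of mouse 3. The gene fell by 4.27 on the log2 scale (SE 0.71, 95% interval -5.93 to -2.61, limma adjusted p = 0.00230; 0.151 with the mouse as a block).

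C1ra (chr6:124512405-124523443, plus strand) lies 6901 bases from C1s1 on the other strand. Its 2D levels were 2.49, 9.49, 7.51 and 3.80 FPKM in mice 2, 3, 4 and 5, and its 3D levels were 0.133, 0.128, 0.143 and 0.312 FPKM in mice 1, 4, 5 and 7. The cultures did not overlap, and mice 3 and 4 were again the highest in 2D. Mean C1ra was 5.82 ± 3.24 FPKM in 2D and 0.179 ± 0.0888 in 3D (SD, n = 4), a ratio of 32.5. It fell by 2.40 on the log2 scale (SE 0.34, 95% interval -3.20 to -1.61, limma adjusted p = 0.00107; 0.128 with the mouse as a block). C1ra and C1s1 fell in both paired mice. The differences in mice 4 and 5 were -2.91 and -2.07 for C1ra and -5.56 and -3.25 for C1s1. Both were called in all planned fits other than the block, each library left out in turn included. C1ra shared 48.0% of the 50-base words of its longest transcript with C1rb, which was listed at 0 in every library, and C1s1 shared 24.3% with C1s2. How the counting divided reads between these copies is not stated.

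C2, the protease that C1s cleaves and that joins C4b in the classical C3 convertase, lies at chr17:34862604-34898265 on the minus strand. Its levels were 1.17, 2.09, 17.6 and 1.17 FPKM in 2D (mice 2, 3, 4 and 5), and 0.0691, 0.0196, 0 and 0.0528 FPKM in 3D (mice 1, 4, 5 and 7). The 2D library of mouse 4 stood far above the rest, and the 3D levels stood for no more than 3.93 estimated fragments per library. The cultures did not overlap. C2 fell by 1.97 on the log2 scale (SE 0.66, 95% interval -3.50 to -0.43, limma adjusted p = 0.0456). Without the 2D library of mouse 4 the difference was -1.24 (SE 0.13, adjusted p = 0.00065). The call was close to the threshold and was lost in 10 of 18 other fits, among them the deposited values (adjusted p = 0.0742), the mouse as a block (adjusted p = 0.287) and the fits without the 2D library of mouse 3 (adjusted p = 0.0651) or without any 1 of the 3D libraries (adjusted p = 0.0860 to 0.0961). C2 also overlaps Zbtb12 on the opposite strand, at 3.39 to 11.3 deposited FPKM, and whether the counting used strand is not stated.

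C4b, the component that C1s cleaves to give the convertase its anchor on the surface, was low in both cultures. It was at 0.0689 to 0.730 FPKM in 2D and 0.0425 to 0.776 FPKM in 3D (chr17:34728380-34743882, minus strand), with the highest 3D value in mouse 1. The ranges overlapped and the difference was -0.13 (95% interval -0.61 to 0.35, limma adjusted p = 0.638). C4b shared 35.2% of its 50-base words with C4a, so the split between these copies is uncertain.

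In the alternative pathway, Cfb is the protease that binds C3b and forms the convertase that amplifies C3 cleavage. Its gene (chr17:34856374-34862518, minus strand) lies 85 bases from C2 on the same strand, and a read-through model, Gm20547, overlaps both. Cfb was at 0.175, 0.0990, 0.378 and 0.326 FPKM in 2D (mice 2, 3, 4 and 5). It was at 47.9, 2.86, 5.15 and 0.599 FPKM in 3D, in mice 1, 4, 5 and 7. Every 3D library was above every 2D library, but the 3D levels were spread widely and the library of mouse 1 held the highest. The difference was 2.40 (SE 0.93, 95% interval 0.24 to 4.57) and was not called (limma adjusted p = 0.0746; 0.144 with the mouse as a block). It passed the threshold without the 3D library of mouse 1 (1.43, adjusted p = 0.0345), without that of mouse 7 (3.08, adjusted p = 0.0282), from mice 4 and 5 alone (adjusted p = 0.0343) and with a pseudocount of 0.1 (adjusted p = 0.0238).

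Cfi, the plasma protease that degrades C3b and C4b with the help of cofactors, was also highest in mouse 1 and lowest in mouse 7 among the 3D libraries. In 2D it was at 0.145, 0, 0.0161 and 0 FPKM in mice 2, 3, 4 and 5 (chr3:129835884-129875332, plus strand), which stood for at most 2.95 estimated fragments. In 3D it was at 14.3, 1.02, 0.971 and 0.677 FPKM in mice 1, 4, 5 and 7. The cultures did not overlap. The difference was 1.61 (SE 0.67, 95% interval 0.05 to 3.18) and was not called (limma adjusted p = 0.0931; 0.114 with the mouse as a block). Without the 3D library of mouse 1 the difference was 0.82 and passed (adjusted p = 0.00039), as it did from mice 4 and 5 alone (adjusted p = 0.0106) and with a pseudocount of 0.1 (adjusted p = 0.00863). The 3D library of mouse 1 also stood apart in some markers. Ly6a was at 58.6 FPKM there, against 1429 to 3117 in the other 3D libraries, Cd14 at 164 against 81.7 to 115, Cd68 at 5.98 against 8.76 to 36.3 and Csf1r at 0.264 against 3.40 to 7.65. The summed epithelial level was 2390 there, against 2636 to 2908. Epcam went the other way, at 494 against 265 to 331, and of the other epithelial markers all but Krt7 were lowest there. The part of these differences in the levels of Cfb and Cfi was not tested.

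The membrane regulators protect the cell that carries them. Cd55, or decay-accelerating factor, breaks up the C3 convertases, and Cd59a blocks the assembly of the membrane attack complex. Cd55 (chr1:130439027-130462744, minus strand) was at 0.429, 7.77, 8.76 and 0.0803 FPKM in 2D (mice 2, 3, 4 and 5), and at 0.182, 0.923, 0.656 and 0.166 FPKM in 3D (mice 1, 4, 5 and 7). The 2D libraries thus lay on both sides of the 3D range. The difference was -1.23 (SE 0.76, 95% interval -3.0 to 0.55, limma adjusted p = 0.240). It was -2.66 without the 2D libraries of mice 2 and 5 and 0.22 without those of mice 3 and 4, and the paired mice also differed in sign, with -2.34 in mouse 4 and 0.62 in mouse 5.

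Cd59a (chr2:104095801-104115354, plus strand) was at 9.64, 7.93, 2.73 and 3.82 FPKM in 2D and at 4.93, 2.65, 3.59 and 0.628 FPKM in 3D, in the same order of mice. The ranges overlapped, and the difference of -0.85 was not called (SE 0.49, 95% interval -1.99 to 0.29, limma adjusted p = 0.206). Within mice 4 and 5 the differences of Cd59a were -0.03 and -0.07. Cd59a was called in none of the other fits, and Cd55 only in that without the 2D libraries of mice 2 and 5, a pair chosen after its levels were seen.

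**Figure D2:**
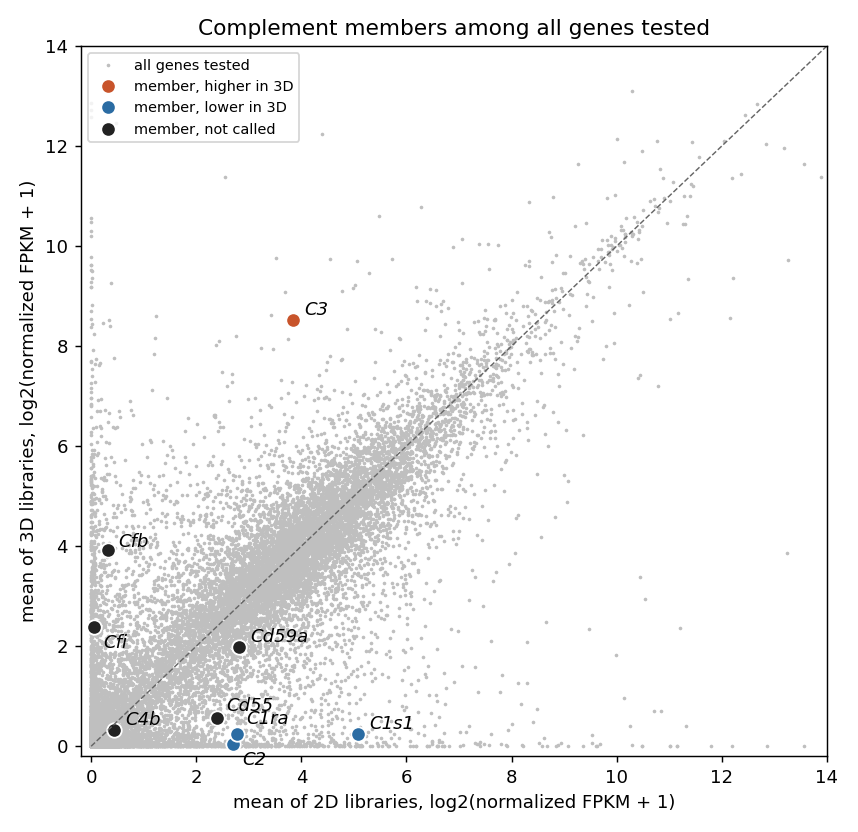
Mean level over the 4 3D libraries against the mean over the 4 2D libraries, both as log2(normalized FPKM + 1), for all 18862 genes tested (grey) and the 9 members (coloured by their call). The dashed line marks equal levels, and C3 stands above it while C2, C1ra and C1s1 lie along the 2D axis.

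The order of the members by level differed between the cultures. By the median FPKM, the 2D order was C1s1 (28.9), C3 (9.71), Cd59a (5.87), C1ra (5.65), Cd55 (4.10), C2 (1.63), C4b (0.314), Cfb (0.251) and Cfi (0.00806). Of these neighbours, only C2 and C4b had ranges that did not overlap. In 3D the order was C3 (355), Cfb (4.01), Cd59a (3.12), Cfi (0.998), Cd55 (0.419), C1ra (0.138), C1s1 (0.121), C4b (0.0980) and C2 (0.0362), and only C3 and Cfb did not overlap. C1s1, first in 2D, was in position 7 in 3D.

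Within the 2D cultures, 6 of the 9 members (66.7%) were higher in both libraries of mice 3 and 4 than in both of mice 2 and 5, and 0 were lower in both. The members were C3, C4b, C2, C1ra, C1s1 and Cd55. Of all genes tested, 23.8% were higher in mice 3 and 4 in this sense. The pairs of mice were chosen after the members' levels were seen, so these shares only describe the libraries. The 2D libraries of mice 3 and 4 are those with the high mesothelial markers, and the part of mesothelial cells in these levels was not tested.

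**Figure D3:**
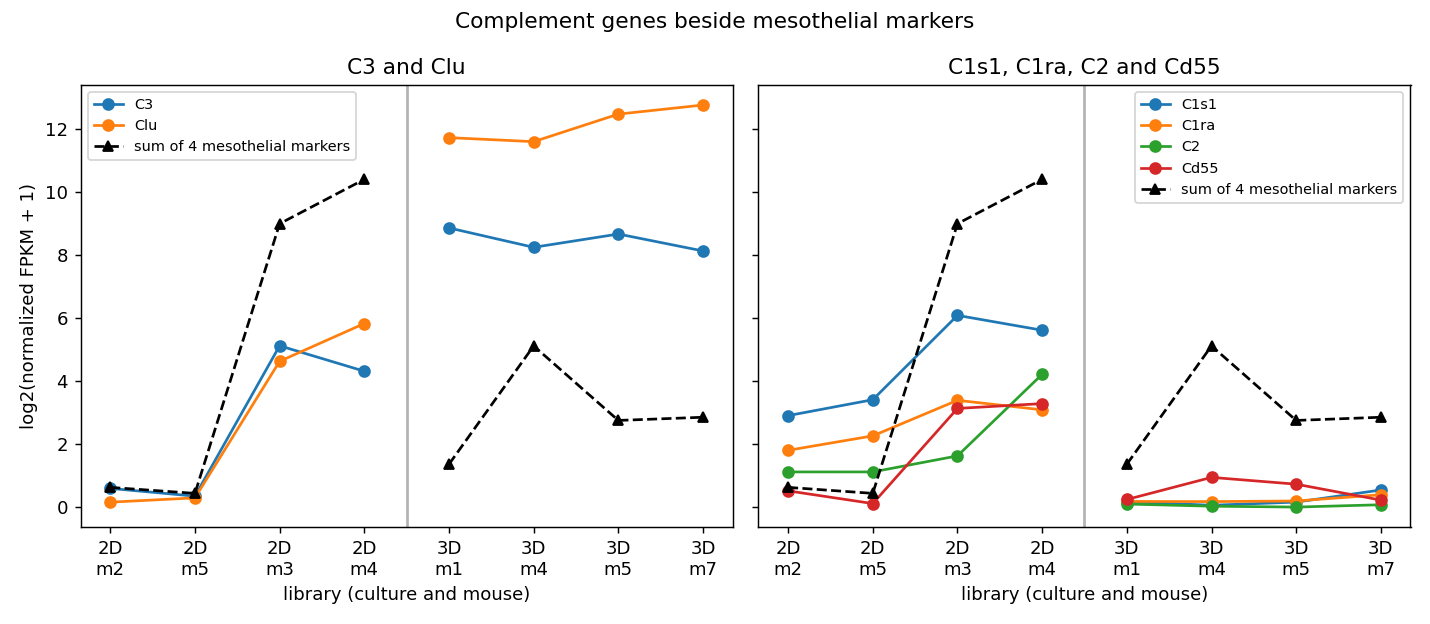
Levels of 6 complement genes and the summed level of 4 mesothelial markers (dashed) in each library, as log2(normalized FPKM + 1), with 2D libraries left and 3D libraries right of the grey line. Lines only join the points of a gene. All 6 genes are higher in the 2D libraries of mice 3 and 4 than in those of mice 2 and 5, as are the markers. Cfb, Cfi and Cd59a, whose levels overlap between these pairs, and C4b are not shown. Of the complement genes beyond the members, only Clu is shown. Among those not shown, C4a, Cfp, Cr1l and C3ar1 were lower in mice 3 and 4, and C1rl, Masp1, Colec12 and Serping1 were higher.

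Other cell types that make complement were looked for by their markers. The hepatocyte markers summed to 0.245 to 0.751 FPKM in 2D and 0.195 to 0.452 in 3D, with Alb at or below 0.0715 in every library and Ttr at 0 in all. Of the adipocyte markers, Adipoq and Lep were at 0 in every library, and Plin1 and Cfd (factor D) were at 0 in every 3D library. Of 6 macrophage markers, Cd14 and Cd68 were higher in 3D (summed level of the 6 markers 5.41 to 24.8 in 2D and 124 to 170 in 3D, of which Cd14 alone was 81.7 to 164). Csf1r was at 0.486 to 1.44 FPKM in 2D and 0.264 to 7.65 in 3D and was not called, while Lyz2 and Adgre1 were at 0 in every 3D library and Ptprc was at or below 0.0779 in all libraries. No endothelial marker passed the test (0.412 to 6.71 in 2D and 0.0480 to 0.202 in 3D). Most epithelial markers were higher in 3D, as C3 was, and most stromal markers were lower, as C1ra, C1s1 and C2 were. Within 2D, C3, C1ra, C1s1 and C2 were all highest in mice 3 and 4. There the summed stromal level was 1872 and 1540, against 2338 and 3384 in mice 2 and 5. The stromal markers did not move together. Col1a1, Col1a2 and Thy1 were lower in mice 3 and 4, and Col3a1, Pdgfrb and Lum were mixed. Pdgfra (11.7 and 38.3 FPKM, against 3.72 and 5.24) and Dcn (15.1 and 102, against 3.43 and 5.01) were higher there. The summed epithelial level was 176 and 694 in mice 3 and 4, against 31.8 and 31.6 in mice 2 and 5. Krt8, Krt18 and Krt19 were higher in mice 3 and 4, as was Cdh1, though at no more than 0.716 FPKM. Krt7 was high only in mouse 4 (67.3 FPKM). Epcam, Cldn3 and Cldn4 were at or below 0.621 FPKM in every 2D library. The part of a change in cell types was not tested.

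The members' profiles over the 8 libraries were compared by Pearson's r, as a description, since the libraries share their culture and medium. C1ra and C1s1 had an r of 0.996, Cfb and Cfi 0.967, and C2 with C1s1 and C1ra 0.837 and 0.817. C3 and C1ra had an r of -0.68. Among 12583 genes whose mean reached 1 FPKM, the gene most like C3 was Nfib (0.999), a transcription factor of the nuclear factor I family, at 2.04 to 20.4 FPKM in 2D and 92.5 to 126 in 3D. Those most like the other members were Itih2 for C1s1 (0.996), Plxdc2 for C1ra (0.997), Serping1 for C2 (0.991), Ackr4 for Cfi (0.998), Tekt4 for Cfb (0.988), Crb2 for Cd55 (0.979) and Hspg2 for Cd59a (0.949). C4b, with a mean under 1 FPKM, was not compared.

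The rest of the complement system was examined with a list of 50 other genes, of which 44 were tested and 6 were at 0 in every library (C1rb, Mbl2, Fcnb, C8b, Cd55b and Vsig4). Of the 44, 6 were higher in 3D, 6 were lower and 32 were not called, and the libraries of 12 did not overlap. Among all genes tested, 41.5% were called and the libraries did not overlap in 42.5%, larger shares than among the 44. When the mouse was taken as a block, 0 of the 44 were called and 10 had an unadjusted p below 0.05, against 0% and 27.7% of all genes. The median difference was -0.02. From mice 4 and 5 alone, Susd4, C1rl, Colec12 and Cd59b were still called, and the other 8 were not (adjusted p = 0.0652 to 0.221).

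**Figure D4:**
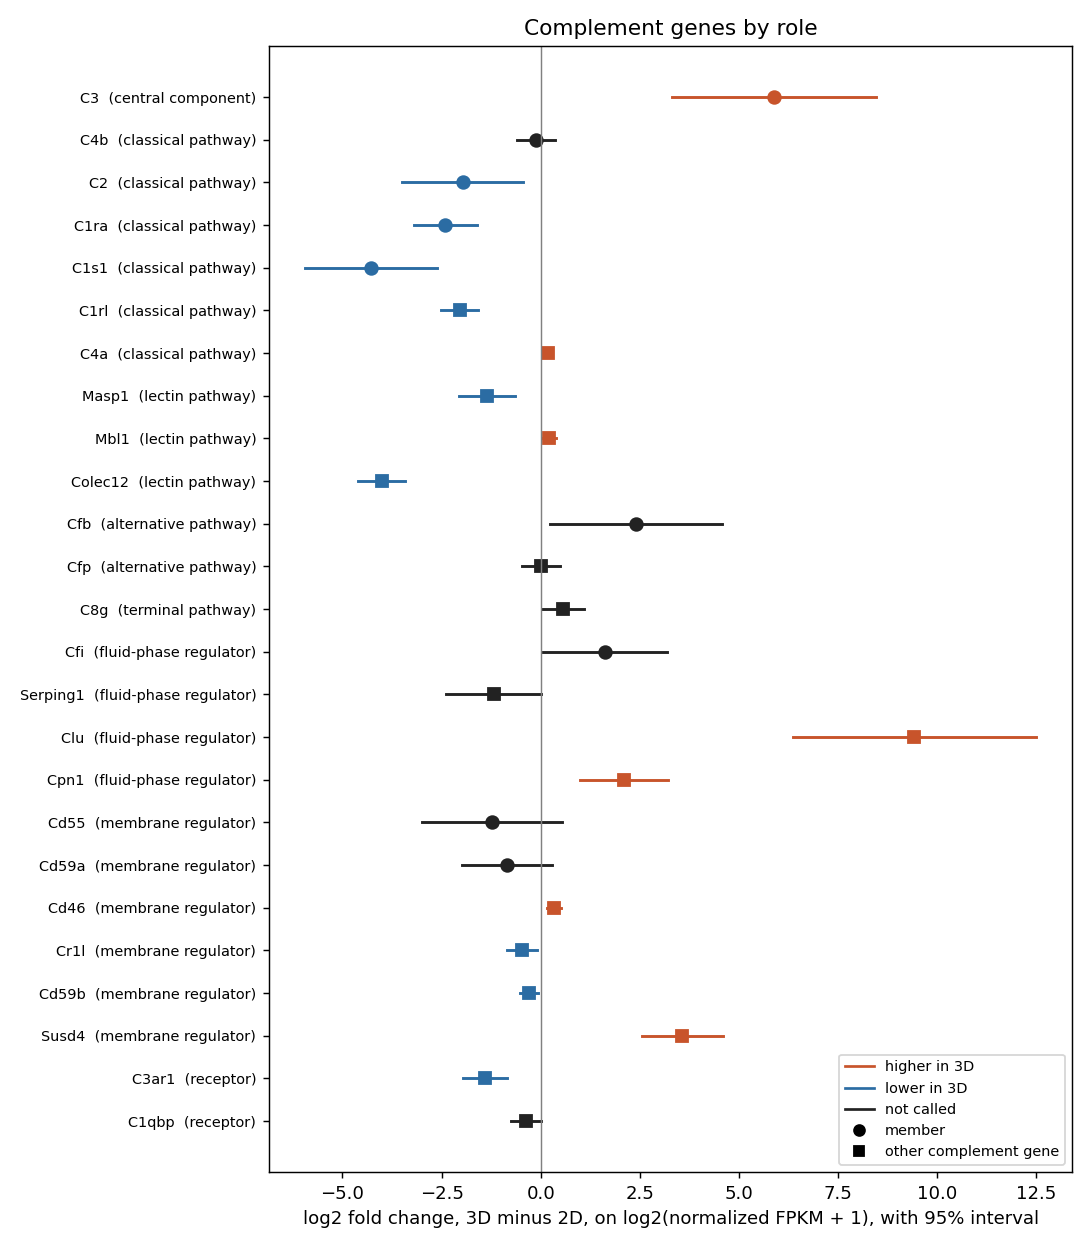
Difference in log2(normalized FPKM + 1), 3D minus 2D, with 95% intervals from limma, for the 9 members (circles) and 16 other complement genes (squares), grouped by role. The called differences run from -4.27 for C1s1 to 9.42 for Clu.

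Among 6 tested genes of the classical pathway, C1rl, a C1r-like protease that lies beside C1ra, fell as C1ra did. It went from 3.44 to 6.31 FPKM in 2D to 0.224 to 0.756 in 3D (-2.04, SE 0.20, limma adjusted p = 0.00017). C4a, which GENCODE types as a processed transcript and not as protein coding, rose, but at levels of at most 0.287 FPKM (0.19, limma adjusted p = 0.00283). The split of its reads from those of C4b is uncertain, as said above. C1qa, C1qb and C1qc, the subunits of the recognition protein that carries C1r and C1s, are named here after their values were seen. They were at 1.07, 1.65 and 1.18 FPKM in mouse 2 in 2D and at 0 in every 3D library, and C1qb and C1qc were at 0.309 and 0.312 FPKM in mouse 4 in 2D. None of these 3 was called.

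Of 7 tested genes listed here under the lectin pathway, 1 was higher and 2 were lower. Whether each of them, Colec12 included, acts in that pathway was not tested. Colec12, a membrane collectin, fell from 16.4 to 38.8 FPKM in 2D to 0.374 to 0.790 in 3D (-4.01, SE 0.25, limma adjusted p = 1.9e-05). Masp1, the lectin pathway counterpart of C1r and C1s, fell from 0.959 to 3.82 FPKM to 0.0280 to 0.680 (-1.36, SE 0.30, adjusted p = 0.00869), and lost its call without the 2D libraries of mice 3 and 4 (adjusted p = 0.0529). Mbl1 was called higher at levels of at most 0.310 FPKM (adjusted p = 0.0478), a call lost in 15 of 17 other fits. Of the alternative pathway, 0 of 2 genes were called, and properdin (Cfp), which stabilizes the convertase, was at 1.10 to 2.47 FPKM in 2D and 1.18 to 2.19 in 3D. Of 6 tested terminal pathway genes none was called. The C8 gamma chain gene, C8g, was at 0.154 to 0.718 FPKM in 2D and 0.450 to 2.03 in 3D (0.57, limma adjusted p = 0.0858).

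On the log2(FPKM + 1) scale, the fluid-phase regulators held the largest rise among the complement genes. Clu, clusterin, which binds the forming membrane attack complex and also acts as a chaperone outside cells, was at 0.114, 23.8, 55.9 and 0.224 FPKM in 2D (mice 2, 3, 4 and 5). In the 3D libraries of mice 1, 4, 5 and 7 it was at 3406, 3117, 5718 and 6982 FPKM. As for C3, all 3D libraries were above all 2D libraries and mice 3 and 4 led in 2D (9.42, SE 1.32, limma adjusted p = 0.00099; 0.183 with the mouse as a block). Cpn1, the catalytic chain of carboxypeptidase N, which inactivates the anaphylatoxins, was at 0 in all 2D libraries and at 1.33, 1.26, 5.46 and 8.80 FPKM in 3D. It was at least 51.8-fold higher in 3D, against the highest level that 3 fragments would give in a 2D library. Cpn1 was called (2.09, SE 0.48, limma adjusted p = 0.00959). The call was lost without the 2D libraries of mice 3 and 4 (2.11) or those of mice 2 and 5 (2.15). These pairs were chosen after levels were seen, and the difference hardly moved in these fits with fewer libraries.

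Serping1, the C1 inhibitor, which blocks C1r and C1s, was at 0.342, 0.892, 6.51 and 0.403 FPKM in 2D and at 0 in all 3D libraries. It was at least 14.1-fold lower in 3D, against the highest level that 3 fragments would give in a 3D library, or at least 3.23-fold with mouse 4 left out of 2D. The gene was not called (-1.19, limma adjusted p = 0.106), but passed when the 2D library of mouse 4 was left out (-0.61, adjusted p = 0.00669) or a pseudocount of 0.1 was used (adjusted p = 0.00806). It also passed without the 2D libraries of mice 3 and 4 (-0.46) and without those of mice 2 and 5 (-1.97), pairs chosen after levels were seen.

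Of 5 other membrane regulators tested, 2 were higher and 2 were lower. Susd4, a membrane protein with complement control modules, was at or below 0.0667 FPKM in 2D and at 3.52, 17.3, 16.4 and 14.9 FPKM in 3D (mice 1, 4, 5 and 7) (3.57, SE 0.44, limma adjusted p = 0.00053). Its ratio of means was 387, above the 240 of Clu, but its 2D levels were near 0, so the size of this ratio is poorly known. Cd46, the membrane cofactor for Cfi, was higher at levels of at most 0.627 FPKM (0.33, limma adjusted p = 0.0110). Its call was lost without the 2D libraries of mice 3 and 4 (0.26), a pair chosen after levels were seen. Cr1l, or Crry, the main membrane regulator of C3 on mouse cells, was the most abundant of the group, at 36.5, 36.0, 25.0 and 37.5 FPKM in 2D and 27.6, 20.1, 21.7 and 26.5 in 3D. Its groups overlapped, and its call (-0.47, SE 0.16, limma adjusted p = 0.0472) was lost in 11 of 18 other fits. Cd59b, which shares 3.98% of the 50-base words of Cd59a, was called lower at levels of at most 0.369 FPKM (adjusted p = 0.0479), a call lost in 14 of 17 other fits.

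Among 9 tested receptors, C3ar1, the receptor for the C3a peptide released from C3, was the only one called. It was at 1.88, 1.03, 1.12 and 3.45 FPKM in 2D and at 0, 0.0260, 0.0181 and 0.0625 FPKM in 3D, with no overlap (-1.41, SE 0.24, limma adjusted p = 0.00240). C1qbp, a mitochondrial protein that also binds C1q, was at 61.4 to 85.4 FPKM in 2D and 41.0 to 66.7 in 3D (-0.38, adjusted p = 0.0997). It was called with the deposited values (-0.81, adjusted p = 0.00637) and with upper quartile scaling (-0.76, adjusted p = 0.00853).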

How the data were processed

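Total RNA of 8 cultures (4 of 2D and 4 of 3D) was depleted of ribosomal RNA and made into directional paired-end libraries. The deposited values are FPKM per gene, which the authors computed with Cufflinks after trimming with FASTX_Trimmer and BBMap and mapping with TopHat (mm10, per the submitters' processing notes); the annotation and the strand setting of the counting are not given in the sources used here. Read counts were not used here, so depth was inferred from the spacing of low values in 875 genes, where 71.7% to 83.8% of low values lay within 0.15 of a whole number of fragments. Of 24346 listed genes, 5484 at 0 everywhere were left out. The other 18862 were quantile normalized, transformed to log2(FPKM + 1), which understates the change of low genes, and compared between 3D and 2D by a linear model of each gene (limma 3.58.1, R 4.3.3, intensity trend, no covariates). Adjusted p-values are Benjamini-Hochberg over all 18862 genes. P-values measure the spread between single cultures of different mice.

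Mice 4 and 5 gave a library of each culture, per the labels. The deviations of their 2D and 3D libraries from the culture means correlated at -0.05 and -0.11 over 12583 genes. Alternatives were the mouse as a block or random effect, the deposited values, upper quartile scaling, no trend, a pseudocount of 0.1, only genes whose mean reached 1 FPKM, mice 4 and 5 alone and each library left out. Leaving out the 2D libraries of mice 3 and 4, or of mice 2 and 5, and the profile likeness on deposited values were chosen after seeing the data.

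The members and the lists were chosen with earlier results of these data known. Named genes are the members, the other complement genes that were called or had a mean of at least 1 FPKM in a culture, and the gene most alike to each member; 1 gene meeting this rule is not reported here. Gene coordinates are from GENCODE M21, which matched 95.7% of the listed genes by symbol, and promoters are from RefSeq (GRCm38.p6). The fit was tested on simulated data.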

Additional observations from a re-analysis of the deposited data

Results flagged for a closer look

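Dixon's criterion was applied to 47 groups of 4 libraries (25 complement genes in each culture, where a group had a range above 0). Of these, 10 held a library far from the other 3. Chance alone meets the criterion in about 1 of 20 groups where values are normally distributed. The FPKM here were not log-transformed and cannot fall below 0, so that share is no measure for the 10. A group with only 1 library above 0 always meets it, as Cd59b did in 3D. Among the members, the 3D library of mouse 1 stood above the other 3D libraries in Cfb (47.9 FPKM), Cfi (14.3 FPKM) and C4b (0.776 FPKM). The 3D library of mouse 7 stood above the others in C1ra (0.312 FPKM). The 2D library of mouse 4 stood above the others in C2 (17.6 FPKM), and that of mouse 2 in Cfi (0.145 FPKM).

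Among the other complement genes, the 2D library of mouse 4 stood above the others in Serping1 (6.51 FPKM) and below them in Cr1l (25.0 FPKM). Cd59b was at 0 FPKM in the 2D library of mouse 3, below the others. It was at 0.0747 FPKM in the 3D library of mouse 1 (0.892 estimated fragments), above the others, which were at 0.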

How the results depend on the processing

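Among the members, the count of 1 higher gene became 3 with a pseudocount of 0.1, 2 from mice 4 and 5 alone and 0 with the mouse as a replicate block, and ranged from 1 to 3 with each library left out (3 without the 3D library of mouse 1 and 2 without that of mouse 7). The count of 3 lower genes became 0 with the mouse as a block and ranged from 2 to 3 with each library left out. Among the other complement genes, the count of 6 higher became 3 with genes of a mean of at least 1 FPKM, 1 from mice 4 and 5 alone and 0 with the block, and ranged from 5 to 6 with each library left out. The count of 6 lower became 3 from mice 4 and 5 alone and 0 with the block, and ranged from 4 to 7 with each library left out. The filter at 1 FPKM leaves fewer genes to test, and the block leaves 1 residual degree of freedom. For the other shifts the cause was not tested.

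The direction of 2 differences that were not called turned without the 2D libraries of mice 3 and 4: C4b (0.067) and Cd55 (0.22). Cfp, whose difference was 0.00, was at -0.017 with the 1 FPKM filter, -0.0010 with the mouse as a random effect, 0.12 without the 2D library of mouse 2, -0.12 without that of mouse 3, -0.05 without that of mouse 4, -0.03 and -0.07 without the 3D libraries of mice 4 and 5, and -0.27 without the 2D libraries of mice 3 and 4. C8g was called with upper quartile scaling (adjusted p = 0.0494) and without the 3D library of mouse 7 (adjusted p = 0.0287). The genes most alike to the members had an r of 0.903 to 0.999 on the deposited values. Members near 0, C2 and C1s1 in 3D and Cfi in 2D, rest on few fragments, so the size of their difference is poorly known.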
